A study of Homo sapiens with 12 samples.

Results

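ESAM, FRMD5, FLRT2, NPNT and LRRN4 are 5 genes for adhesion, matrix and cell-surface or membrane-linked proteins whose RNA was higher in HepG2 cells after knockdown of full-length β-catenin than in control cells. They are 5 of 14884 genes that carried a gene symbol, and each was measured by 1 probe set. The list was chosen by the log2 levels of these arrays, with no stated threshold and with results of all 4 groups known. It is taken here to rest on higher values after sißCat-WT than after siCtrl, so comparisons that hold the sißCat-WT arrays are given as a description and were not tested. Tests of the other comparisons are not independent of the choice.

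HepG2 is an established line from a human liver tumour in which 1 allele of the β-catenin gene lacks exon 3, so that a truncated and stable form of the protein is made beside the full-length form. All cells, controls included, carried that deletion, and all were sampled 120 h after the siRNA. The groups were sißCat-WT (siRNA against the full-length form), sißCat-mut (against the truncated form), sißCat-both (against both forms) and siCtrl (control siRNA), with 3 Affymetrix arrays in each and 12 in all. The sample titles do not say how many siRNAs were used, or whether sißCat-both was a mixture. All knockdowns were made in 1 line, so the loss of a form and other effects of an siRNA cannot be told apart.

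β-catenin has separate roles at the membrane and in the nucleus. At adherens junctions it ties cadherins to the actin cytoskeleton through α-catenin, and in the nucleus it acts with TCF and LEF factors on Wnt target genes. The 5 genes act at various points of cell contact. ESAM is an immunoglobulin-type adhesion molecule best known from tight junctions of endothelial cells and from platelets. FRMD5 is a FERM-domain protein that links membrane proteins to the cell cortex and binds p120-catenin at adherens junctions. FLRT2 is a membrane protein with leucine-rich repeats that binds latrophilins and UNC5 receptors on other cells. NPNT encodes nephronectin, a basement membrane protein and ligand of integrin α8β1. LRRN4 is a membrane protein with leucine-rich repeats that is known as a marker of mesothelium.

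The values are log2 intensities made by the authors with RMA, and array medians over all probe sets lay between 4.71 and 4.78, near which RMA tends to compress changes. Across genes, arrays of 1 group correlated with r between 0.994 and 0.997. Probe sets for the β-catenin gene are not analysed here, and group membership is taken from the labels. The labels do not say whether triplicates came from separate cultures, so that p-values reflect the spread among these samples, which may be technical. Of 12 hepatocyte markers 9 were measured, and their mean log2 level per array was 12 to 12.1 after sißCat-WT, 12.7 to 12.8 after sißCat-mut, 12.6 to 12.7 after sißCat-both and 12.1 to 12.2 after siCtrl.

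ESAM and LRRN4 are elsewhere known from endothelium and mesothelium, so markers of these cell types were read beside them. Of 10 endothelial markers 7 were measured, with a mean log2 level per array of 4.32 to 4.50 after sißCat-WT, 4.38 to 4.58 after sißCat-mut, 4.32 to 4.49 after sißCat-both and 4.32 to 4.44 after siCtrl. In every group 6 of the 7 had a mean log2 level under 5, among them PECAM1, KDR and VWF, and CLDN5 was the highest at 5.93 to 6.10. The 8 mesothelial markers had a mean log2 level per array of 5.28 to 5.37 after sißCat-WT, 5.38 to 5.58 after sißCat-mut, 5.53 to 5.64 after sißCat-both and 5.27 to 5.33 after siCtrl. Neither list had a gene called in sißCat-WT against siCtrl, where 5.2% of all genes were called higher and 4.97% lower. Of the endothelial list VWF (von Willebrand factor) alone was called against siCtrl, higher by 0.33 after sißCat-mut and by 0.37 after sißCat-both (limma adjusted p = 0.0236 and 0.00863), with group means of 4.57 after sißCat-mut, 4.61 after sißCat-both and 4.24 after siCtrl. Over all genes 12% were called higher after sißCat-mut and 15.5% after sißCat-both. The part of endothelial markers in the changes of ESAM was not tested. The 7 measured of 12 mesenchymal markers stood at mean log2 levels per array of 4.33 to 4.62 over all groups, also with 0 genes called after sißCat-WT. Against siCtrl, TWIST1 alone was called after sißCat-mut, higher by 0.29 (limma adjusted p = 0.0304), at a group mean of 3.37, far below the array medians. ZEB1 alone was called after sißCat-both, lower by 0.42 (limma adjusted p = 0.00253), where 18.1% of all genes were called lower.

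RefSeq promoter windows were on hand for 3 of the 5 genes, FRMD5 and FLRT2 with several start sites and NPNT with 1. ESAM and LRRN4 had no entry. The 250 bases before a start site were searched on both strands for the letters CTTTGAT (TCF/LEF), GGAATG (TEAD), TGANTCA (AP-1) and CAGACA (part of the SMAD site). Since the genes were high after the same siRNA, the windows that held a match, and the only window of NPNT, are shown 5′ to 3′ with the matched letters in capitals.
FRMD5, chr15:44194447-44194696, minus strand: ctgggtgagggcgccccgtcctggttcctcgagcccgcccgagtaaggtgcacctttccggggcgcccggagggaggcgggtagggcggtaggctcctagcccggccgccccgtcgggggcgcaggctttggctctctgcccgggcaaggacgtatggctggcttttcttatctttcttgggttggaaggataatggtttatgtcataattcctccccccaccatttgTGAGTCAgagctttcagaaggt
FLRT2, chr14:85533099-85533348, plus strand: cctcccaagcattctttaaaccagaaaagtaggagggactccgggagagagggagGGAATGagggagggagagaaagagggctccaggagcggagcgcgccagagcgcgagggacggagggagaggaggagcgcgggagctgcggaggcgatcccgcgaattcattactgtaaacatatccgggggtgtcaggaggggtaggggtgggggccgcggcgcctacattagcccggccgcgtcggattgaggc
NPNT, chr4:105895221-105895470, plus strand: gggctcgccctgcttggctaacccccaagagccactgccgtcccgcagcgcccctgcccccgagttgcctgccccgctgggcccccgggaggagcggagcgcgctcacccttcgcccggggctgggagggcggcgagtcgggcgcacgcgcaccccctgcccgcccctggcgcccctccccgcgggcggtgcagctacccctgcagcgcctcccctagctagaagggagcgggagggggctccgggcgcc
The coordinates are those of GRCh38.p14. The FRMD5 window held the AP-1 letters 22 bases before the start site, and the FLRT2 window held the TEAD letters 195 bases before it. None of these letters stood in the NPNT window, in the other FRMD5 window or in the other 2 FLRT2 windows. The TCF/LEF letters were in none of the 6 windows and in 2.26% of all 35116 windows of that length. The AP-1 and TEAD letters were in 6.57% and 11.9% of them and the SMAD letters in 13.6%. GC content was 79.2% in the NPNT window, 62.4% in the FRMD5 window and 64.0% in the FLRT2 window, against a median of 58.0% over all windows.

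ESAM, the junctional adhesion molecule, had log2 levels of 8.43, 8.43 and 9.21 after sißCat-WT, 7.08, 7.52 and 7.44 after sißCat-mut, 5.94, 5.76 and 5.72 after sißCat-both, and 6.90, 7.05 and 7.23 after siCtrl. The arrays of sißCat-WT were above all others and those of sißCat-both below all others, while sißCat-mut and siCtrl overlapped. After sißCat-WT the level was 3.09 times that after siCtrl (log2 difference 1.63 ± 0.18, SE, n = 3 arrays per group). Replicate 3 of sißCat-WT was the high one, and without it the difference was 1.37. Against siCtrl ESAM fell 2.38-fold after sißCat-both (log2 change -1.25 ± 0.18, limma adjusted p = 0.000103). The change after sißCat-mut was 0.29 ± 0.18 and did not pass the test (95% interval -0.11 to 0.68, adjusted p = 0.309).

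FRMD5, the FERM protein of adherens junctions, had log2 levels of 7.997, 8.27 and 8.38 after sißCat-WT, 5.14, 5.30 and 5.22 after sißCat-mut, 4.86, 4.69 and 4.53 after sißCat-both, and 5.996, 6.35 and 6.61 after siCtrl. No groups overlapped, and the order from high to low was sißCat-WT, siCtrl, sißCat-mut and sißCat-both. The level after sißCat-WT was 3.73 times that after siCtrl (log2 difference 1.90 ± 0.14). FRMD5 fell by 1.096 ± 0.14 after sißCat-mut and fell by 1.62 ± 0.14 after sißCat-both on the log2 scale against siCtrl (limma adjusted p = 6.79e-05 and 1.29e-06). The sißCat-mut and sißCat-both levels lie near the array medians.

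FLRT2, the leucine-rich repeat ligand, had log2 levels of 7.40, 7.81 and 7.72 after sißCat-WT, 5.60, 6.11 and 5.97 after sißCat-mut, 7.30, 7.64 and 7.52 after sißCat-both, and 5.60, 5.96 and 6.07 after siCtrl. These fell into a high range, sißCat-WT with sißCat-both, and a low range, sißCat-mut with siCtrl, and the groups overlapped within each range. After sißCat-WT the level was 3.41 times that after siCtrl (log2 difference 1.77 ± 0.16). FLRT2 rose 3.06-fold after sißCat-both (log2 change 1.61 ± 0.16, limma adjusted p = 2.98e-06). The change after sißCat-mut was 0.02 ± 0.16, which did not pass the test (95% interval -0.32 to 0.36, adjusted p = 0.955).

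NPNT, the matrix ligand of integrin α8β1, had log2 levels of 8.10, 8.31 and 8.32 after sißCat-WT, 5.66, 4.99 and 4.91 after sißCat-mut, 6.37, 6.44 and 6.38 after sißCat-both, and 7.37, 7.55 and 7.54 after siCtrl. No groups overlapped, and the order from high to low was sißCat-WT, siCtrl, sißCat-both and sißCat-mut. The level after sißCat-WT was 1.69 times that after siCtrl (log2 difference 0.75 ± 0.15), the smallest such difference of the 5 genes. NPNT fell by 2.30 ± 0.15 after sißCat-mut (limma adjusted p = 2.37e-07), the 11th lowest change of all genes, to levels near the array medians. It fell 2.13-fold after sißCat-both (log2 change -1.09 ± 0.15, limma adjusted p = 7.31e-05).

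LRRN4, the mesothelial leucine-rich repeat protein, had log2 levels of 7.48, 7.84 and 7.83 after sißCat-WT, 5.16, 5.62 and 4.65 after sißCat-mut, 5.28, 4.99 and 5.46 after sißCat-both, and 6.49, 6.70 and 6.62 after siCtrl. The sißCat-WT arrays were highest and the siCtrl arrays next, and the arrays of sißCat-mut and sißCat-both overlapped at the low end. The level after sißCat-WT was 2.17 times that after siCtrl (log2 difference 1.12 ± 0.19). LRRN4 fell by 1.46 ± 0.19 after sißCat-mut and fell by 1.36 ± 0.19 after sißCat-both on the log2 scale (limma adjusted p = 8.75e-05 and 8.97e-05), to levels near the array medians.

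**Figure D1:**
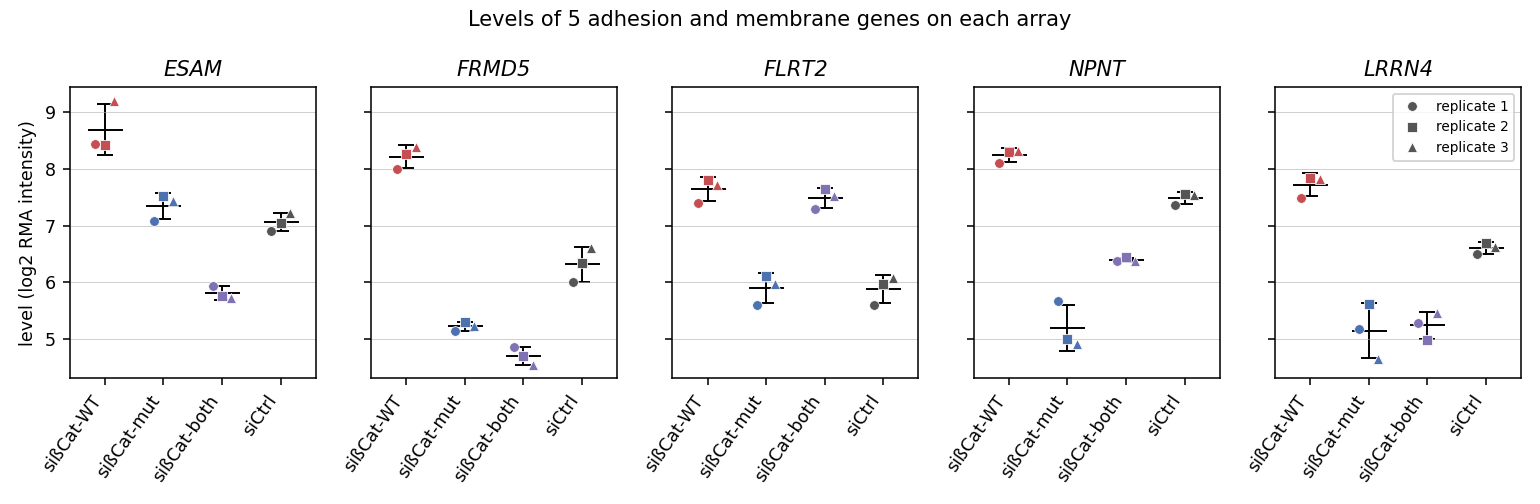
Log2 RMA intensity of the 5 genes on each of the 12 arrays, with 1 panel per gene, groups along the horizontal axis, 1 symbol per replicate number, and the group mean and SD (n = 3) as lines. The sißCat-WT arrays are above the other 9 arrays for ESAM, FRMD5, NPNT and LRRN4, and the FLRT2 arrays of sißCat-WT and sißCat-both overlap.

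The 5 genes thus shared the high level after sißCat-WT and differed elsewhere. All 3 sißCat-WT arrays were above all 3 siCtrl arrays for 5 of 5 genes, which held for 15.5% of all genes tested, and above the other 9 arrays for 4 of 5, which held for 6.99% of all genes. Nothing is read from these counts, because the genes were picked for that level. Against siCtrl, 3 of 5 fell and 0 rose after sißCat-mut, beside 13.6% of all genes that were called lower and 12% that were called higher. After sißCat-both 4 of 5 fell and FLRT2 rose, beside 18.1% called lower and 15.5% called higher. The siCtrl arrays of these comparisons are also those against which the genes were high after sißCat-WT. Hepatocyte markers moved in the same comparisons, with 7 of 9 higher and 0 lower after sißCat-mut and 8 higher and 1 lower after sißCat-both, and their part in the results was not tested.

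**Figure D2:**
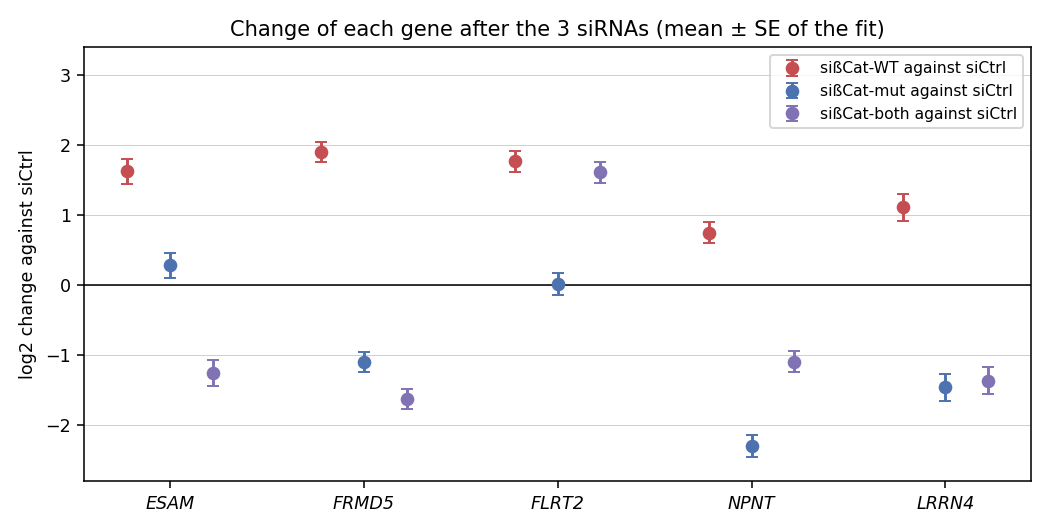
Log2 change of each gene against siCtrl after sißCat-WT, sißCat-mut and sißCat-both, as the difference of group means with its SE from the fit (n = 3 arrays per group). All 5 genes lie above 0 after sißCat-WT, and only FLRT2, at 1.61, lies well above 0 after sißCat-both.

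In siCtrl the array of replicate 1 was the lowest of the 3 for 5 of 5 genes, and it was the lowest for 35.8% of all genes. In sißCat-WT replicate 1 was lowest for 4 of the 5 genes (33.8% of all genes), in sißCat-mut for 3 (28.8%) and in sißCat-both for 2 (32.0%). For FLRT2 replicate 1 was the lowest array in each of the 4 groups. The labels do not say what samples of 1 replicate number share.

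The comparison of sißCat-both with sißCat-mut holds neither the sißCat-WT nor the siCtrl arrays, although its results were known when the 5 genes were chosen. It asks how the genes stand when both forms are targeted rather than the truncated form alone. If sißCat-both was an siRNA of its own, the groups compared also differed in the siRNA used. FLRT2 and NPNT were higher after sißCat-both, ESAM and FRMD5 were lower, and LRRN4 did not pass the test. FLRT2 rose 3.02-fold (log2 change 1.59 ± 0.16, limma adjusted p = 1.02e-05) and NPNT 2.31-fold (1.21 ± 0.15, adjusted p = 7.99e-05). These changes were the 29th and 70th highest of 14884 genes. For NPNT the sißCat-mut levels lie near the array medians. ESAM fell 2.91-fold (-1.54 ± 0.18, adjusted p = 4.64e-05), the 31st lowest change. The decrease of FRMD5 was smaller, at 1.44-fold (-0.52 ± 0.14, adjusted p = 0.0168), and it no longer passed without sißCat-mut replicate 2 (-0.49, adjusted p = 0.0605) or without sißCat-both replicate 3 (-0.44, adjusted p = 0.0735). LRRN4 differed by 0.09 ± 0.19 (95% interval -0.33 to 0.51, adjusted p = 0.798). For FRMD5 and LRRN4 the levels of both groups lie near the array medians, where RMA tends to compress changes. Over all genes 10.6% were called higher and 11.6% lower in this comparison, beside 2 and 2 of the 5.

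Set beside sißCat-WT against siCtrl, with which it shares no array, the comparison placed the genes apart. FLRT2 had log2 differences of 1.59 for sißCat-both against sißCat-mut and 1.77 for sißCat-WT against siCtrl, and NPNT had 1.21 and 0.75. ESAM had opposite differences of -1.54 and 1.63, and so had FRMD5 with -0.52 and 1.90. The departure from additivity, sißCat-both minus sißCat-WT minus sißCat-mut plus siCtrl, holds the sißCat-WT arrays and was therefore not tested for these genes. It was -3.17 ± 0.26 for ESAM, -2.42 ± 0.20 for FRMD5, -1.02 ± 0.28 for LRRN4, -0.18 ± 0.22 for FLRT2 and 0.45 ± 0.22 for NPNT. For ESAM it was larger than any single change of that gene. For FRMD5 and LRRN4 the sißCat-mut and sißCat-both levels that enter the departure lie near the array medians. The departure would also hold a difference of siRNA if sißCat-both was an siRNA of its own. For FLRT2 the value was within its SE of 0, and it ranged from -0.32 (without sißCat-mut replicate 1) to -0.04 (without siCtrl replicate 1) when single arrays were left out. For NPNT the same range was 0.31 to 0.69, with the highest value without sißCat-mut replicate 1.

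**Figure D3:**
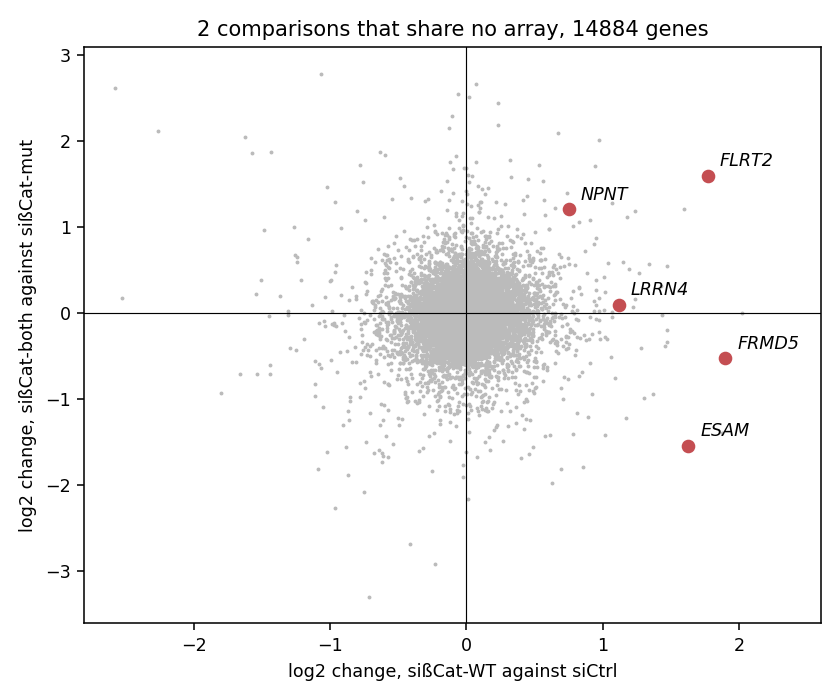
Log2 change in sißCat-WT against siCtrl (horizontal) and in sißCat-both against sißCat-mut (vertical) for 14884 genes (grey) and the 5 genes (red, named). All 5 lie to the right of 0, with FLRT2 (1.59) and NPNT (1.21) above the horizontal line, ESAM (-1.54) and FRMD5 (-0.52) below it, and LRRN4 (0.09) close to it.

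Directly between knockdowns of single forms, all 5 genes were lower after sißCat-mut than after sißCat-WT, by log2 differences of -3.05 ± 0.15 for NPNT, -3.00 ± 0.14 for FRMD5, -2.57 ± 0.19 for LRRN4, -1.75 ± 0.16 for FLRT2 and -1.34 ± 0.18 for ESAM. Between sißCat-both and sißCat-WT the differences were -3.52 ± 0.14 for FRMD5, -2.88 ± 0.18 for ESAM, -2.48 ± 0.19 for LRRN4, -1.85 ± 0.15 for NPNT and -0.16 ± 0.16 for FLRT2. FLRT2 was the gene whose sißCat-both arrays overlapped those of sißCat-WT. These values hold the sißCat-WT arrays and were not tested.

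Relatives and partners of the 5 genes were read from 5 lists. In sißCat-WT against siCtrl, 5.2% of all genes were called higher and 4.97% lower. These shares were 12% and 13.6% after sißCat-mut, and 15.5% and 18.1% after sißCat-both. In sißCat-both against sißCat-mut they were 10.6% and 11.6%. The lists are small, and nothing is read from their counts of called genes. Of 12 listed genes of the JAM and CTX family, to which ESAM belongs, 6 were measured. JAM3, a junctional adhesion molecule, rose by 0.53 ± 0.12 after sißCat-WT (limma adjusted p = 0.0115) at log2 levels of 4.82 after sißCat-WT and 4.29 after siCtrl, near the array medians. The other 5 did not pass the test there, and 0 of 6 passed after sißCat-mut, after sißCat-both, or between these groups. The family's median log2 change in sißCat-both against sißCat-mut was -0.05, beside -0.02 over all genes and -1.54 for ESAM.

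Of 20 listed FERM-domain linkers and partners of FRMD5, 18 were measured. After sißCat-WT 0 rose and 1 fell, EPB41L1, which anchors membrane proteins to the spectrin cytoskeleton, by 0.69 ± 0.08 (limma adjusted p = 0.000168). After sißCat-mut 2 rose and 2 fell, after sißCat-both 2 rose and 3 fell, and 3 were higher and 1 lower in sißCat-both against sißCat-mut (median log2 change of the list 0.01). EPB41L2, a relative of protein 4.1, had log2 levels of 9.18 after sißCat-WT, 9.09 after sißCat-mut, 7.95 after sißCat-both and 9.02 after siCtrl. It was low in sißCat-both alone and fell by 1.07 ± 0.07 there against siCtrl (adjusted p = 1.57e-07). EPB41L4B rose by 0.79 and EPB41L5 by 0.62 after sißCat-both, and NF2 fell by 0.29 there. After sißCat-mut RDX rose by 0.48 and EPB41L5 by 0.40, and FRMD3 and EZR (ezrin) fell by 0.58 and 0.25.

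The FLRT list held the other 2 FLRT proteins and their receptors, and 10 of 11 were measured. FLRT3, the close relative of FLRT2, had log2 levels of 3.37, 3.08 and 3.09 after sißCat-WT, 3.35, 3.42 and 3.49 after sißCat-mut, 5.75, 6.12 and 5.94 after sißCat-both and 3.21, 3.15 and 3.12 after siCtrl. Its sißCat-both arrays stood above all others, and the remaining groups were below the array medians. FLRT3 rose by 2.78 ± 0.10 after sißCat-both against siCtrl (limma adjusted p = 5.96e-10), and its changes after sißCat-WT (0.02 ± 0.10) and sißCat-mut (0.26 ± 0.10) did not pass the test (adjusted p = 0.954 and 0.0781). FLRT2 and FLRT3 thus rose together after sißCat-both, while FLRT1 changed by -0.25 ± 0.12 there without passing (adjusted p = 0.127). Among receptors, ADGRL1 (latrophilin 1) rose by 0.37 ± 0.09 after sißCat-WT (adjusted p = 0.023), as the 1 called gene of the list. ADGRL2 rose by 0.49 after sißCat-mut, UNC5B rose by 0.57 after sißCat-both, and the growth factor receptor FGFR1 fell by 0.72 and 1.23 after sißCat-mut and sißCat-both. In all, 1 rose and 1 fell after sißCat-mut, 2 rose and 1 fell after sißCat-both, and 2 were higher and 3 lower between these groups, with a median log2 change of -0.07.

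For NPNT, 7 of 28 listed basement membrane genes and nephronectin receptors were measured, so most of that list is not analysed here. FREM1, an extracellular matrix protein of the basement membrane, fell by 1.51 ± 0.13 after sißCat-WT (limma adjusted p = 1.48e-05), against the direction of NPNT. It also fell by 0.91 after sißCat-mut and by 0.53 after sißCat-both. FRAS1 fell by 0.38 after sißCat-mut and by 0.25 after sißCat-both (limma adjusted p = 0.00171 and 0.0179), in the direction of NPNT. Of the 7 genes 1 rose and 2 fell after sißCat-mut, and 0 rose and 4 fell after sißCat-both. HSPG2 (perlecan) rose by 0.65 after sißCat-WT and fell by 0.47 after sißCat-both, and AGRN (agrin) rose by 0.38 after sißCat-mut and fell by 0.52 after sißCat-both. In sißCat-both against sißCat-mut, where NPNT rose, HSPG2 and AGRN fell by 0.58 and 0.90 and the other 5 did not pass, with a median log2 change of -0.09.

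All 14 listed leucine-rich repeat relatives of LRRN4 were measured. After sißCat-WT 0 rose and 1 fell, the growth factor receptor inhibitor LRIG1, by 0.59 ± 0.09 (limma adjusted p = 0.00107). LRIG3 fell by 0.40 after sißCat-mut and rose by 0.87 after sißCat-both, with a log2 change of 1.27 ± 0.09 between these groups (adjusted p = 1.14e-06). LRIG2, AMIGO1 and AMIGO2 rose by 0.44, 0.34 and 0.23 after sißCat-both, and no relative fell there. In sißCat-both against sißCat-mut 3 were higher and 0 lower, with a median log2 change of 0.08. LRRN1, LRRN2 and LRRN3, the nearest relatives by name, passed in none of the 4 comparisons of sißCat-WT, sißCat-mut and sißCat-both with siCtrl and of sißCat-both with sißCat-mut.

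**Figure D4:**
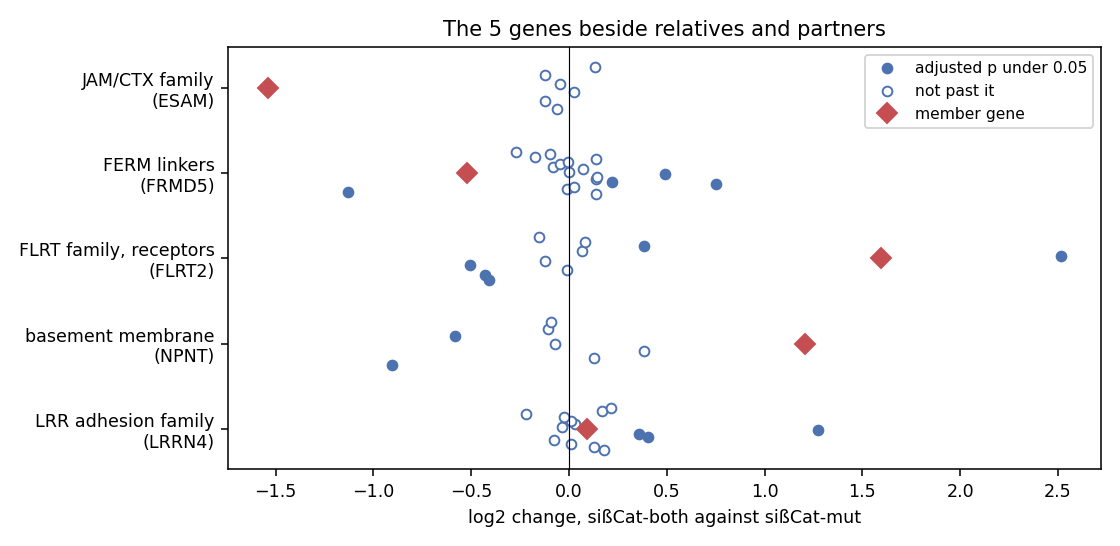
Log2 change in sißCat-both against sißCat-mut for the measured genes of the 5 lists (circles, filled where the limma adjusted p is under 0.05) and for the 5 genes (red diamonds). ESAM (-1.54) and NPNT (1.21) lie outside the range of their lists, FLRT2 (1.59) lies below FLRT3 (2.52), and LRRN4 (0.09) lies within its list.

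The genes with the most similar levels over the 12 arrays differed from member to member. Likeness was the Pearson correlation of log2 levels over 12 arrays among 1127 other genes whose group means spanned at least 1 on the log2 scale. The arrays fall into 4 groups, so r mostly compares 4 group means and carries no test. Nearest to ESAM were TCP11L2 (r = 0.994), the receptor tyrosine kinase AXL (0.985) and the hydroxylase ASPH (0.973). Group means of AXL were 8.61 after sißCat-WT, 7.21 after sißCat-mut, 5.82 after sißCat-both and 6.74 after siCtrl, the same order as for ESAM.

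Nearest to FRMD5 were the transcriptional repressor TGIF1 (0.987), the neuronal cell adhesion molecule NRCAM (0.985) and the translation factor EIF5A2 (0.984). Nearest to FLRT2 were SKIL (0.969) and SMAD7 (0.901), both inhibitors of SMAD signalling, and the exchange factor DOCK4 (0.898). SKIL had group means of 7.89 after sißCat-WT, 6.81 after sißCat-mut, 7.90 after sißCat-both and 6.98 after siCtrl, a high and a low range as for FLRT2. NPNT was most like BBS5 (0.984), a protein of cilia, the dermatan sulfotransferase CHST14 (0.984) and RCC2 (0.983). LRRN4 was most like the inositol synthase ISYNA1 (0.983), ISM1 (0.974) and the cell cycle repressor E2F7 (0.973).

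The 5 genes lie on 5 chromosomes, 11 (ESAM), 15 (FRMD5), 14 (FLRT2), 4 (NPNT) and 20 (LRRN4). Their nearest measured protein-coding neighbours, 2 on each side by the RefSeq gene table, were read for the same changes. Of these 20 neighbours, 0 rose and 1 fell after sißCat-WT, beside 5.2% of all genes called higher and 4.97% lower. The 1 that fell was CRLS1, an enzyme of cardiolipin synthesis next to LRRN4, by 0.30 (limma adjusted p = 0.0194). VSIG2, the immunoglobulin-type gene next to ESAM, had group means of 6.08 after sißCat-WT, 6.03 after sißCat-mut, 6.16 after sißCat-both and 6.01 after siCtrl and passed in none of the 4 comparisons.

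After sißCat-mut 1 of the 20 neighbours rose and 7 fell, beside 12% of all genes called higher and 13.6% lower. After sißCat-both 6 rose and 6 fell, beside 15.5% and 18.1%, and in sißCat-both against sißCat-mut 4 were higher and 2 lower, beside 10.6% and 11.6%. FERMT1 (kindlin-1, an activator of integrins), on the other side of LRRN4, fell by 1.75 after sißCat-mut and by 1.66 after sißCat-both (limma adjusted p = 5.2e-07 and 4.02e-07). It changed by -0.18 after sißCat-WT without passing (adjusted p = 0.474), where LRRN4 was higher. TBCK, next to NPNT, fell by 0.69 after sißCat-mut and rose by 0.46 in sißCat-both against sißCat-mut (adjusted p = 2.33e-05 and 0.000866), and AIMP1 beyond it fell by 0.97 and 0.80 after sißCat-mut and sißCat-both. SPA17, a neighbour of ESAM, fell by 0.48 after sißCat-mut and by 1.21 after sißCat-both (adjusted p = 0.00167 and 4.05e-07). WDR76, next to FRMD5, fell by 0.35 and 0.59 in these groups, while the other 3 neighbours of FRMD5 rose after sißCat-both, MFAP1 by 0.38, GOLM2 by 0.42 and SPG11 by 0.31 (adjusted p = 0.00748, 0.00777 and 0.00626). BMP2, a growth factor gene beyond FERMT1, rose by 0.56 after sißCat-both (adjusted p = 0.00285), and CRLS1 rose by 0.21 (adjusted p = 0.0451). GALC, a neighbour of FLRT2, rose by 0.23 after sißCat-both (adjusted p = 0.0493). Its group means were 3.52 after sißCat-both and 3.29 after siCtrl, far below the array medians. The 4 neighbours of FLRT2 lie 2280 to 4380 kb from it and had log2 changes of -0.29 to 0.27 in the 4 comparisons.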

How the data were processed

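RNA of HepG2 cells was hybridised as biotin-labelled cDNA to 12 Affymetrix arrays. For 53617 probe sets the authors deposited log2 intensities. Per the submitters' processing notes the tools were RMA and Affymetrix Expression Console 1.1. That the scale is log2 was read from the values, which end near the top of a log2 scanner range with similar distributions on all arrays. RMA equalises the arrays and tends to compress changes of dim genes. The sources used here give no annotation build or summary level. The number of arrays limits the precision.

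By the platform annotation, 1 gene symbol belonged to each of 16098 probe sets, several symbols to 0, and the other 37519 stay unnamed here. Where a gene had several probe sets (779 genes), the brightest was used, leaving 14884 genes, with no filter on dim genes. A limma model (version 3.58.1 in R 4.3.3, lmFit with eBayes) with a mean per group used all 12 arrays and had 8 residual degrees of freedom. Tests were two-sided, adjusted by Benjamini-Hochberg over all genes, and called at an adjusted p under 0.05. The members, gene lists and tests were chosen with earlier results of these data known. The text names the 5 genes, up to 4 called genes per list and comparison, 3 genes most like each and 2 measured neighbours on each side. Promoter windows came from RefSeq (GRCh38.p14). Groups and replicate numbers came from the sample titles.

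On simulated data for sißCat-both against sißCat-mut with 14884 genes, recovery was 56.7% for 67 genes shifted by 0.5 on the log2 scale, 98.5% for 67 shifted by 1 and 100% for 66 shifted by 2. Of 176 calls 6 were false. The simulation shifted few genes and drew noise independently for each gene, while 3297 genes were called in the data. Recovery and false calls in the data may therefore differ from these rates. Deviations from group means correlated above 0.1 in all 3 same-numbered pairs of sißCat-both and sißCat-WT (0.115, 0.155 and 0.134). Pairs of unlike number were not compared, so these values do not show a pairing, and the labels are silent on it. The main model therefore held no replicate block. In the other comparisons at least 1 pair was under 0.1. Alternatives were another normalization, median centring, the mean of probe sets, leaving out dim genes (those under the 40th percentile), a trended or robust prior, array weights, only the groups compared, the replicate block and leaving out each array. Plots used matplotlib 3.10.9 (Python 3.11.15).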

Additional observations from a re-analysis of the deposited data

Results flagged for a closer look

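ESAM and FRMD5 differed in opposite directions in 2 comparisons that share no array. ESAM had a log2 difference of -1.54 in sißCat-both against sißCat-mut, where every sißCat-both array was below every sißCat-mut array, and of 1.63 in sißCat-WT against siCtrl, where every sißCat-WT array was above every siCtrl array. FRMD5 had differences of -0.52 and 1.90 in these comparisons, again with no overlap of arrays in either. All sißCat-WT arrays were above all siCtrl arrays for 15.5% of all genes. The share of all genes without overlap in sißCat-both against sißCat-mut was not counted, so nothing is read from the lack of overlap. The difference between these comparisons was not tested, because it holds the sißCat-WT arrays. The other 3 genes did not show opposite changes in every array.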

How the results depend on the processing

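Each of the 7 contrasts of the 5 genes was recomputed under the alternatives, 730 values in all. Of these, 719 kept their direction and their side of the threshold or, where untested, moved by less than the spread between replicates. Several alternatives could not move a difference of group means. These were the priors, the replicate block, leaving out dim genes, the mean of probe sets (1 per gene here), using only the groups compared and leaving out arrays of groups not compared. The count of 719 therefore overstates how far the untested differences were put to a test. The change of FLRT2 after sißCat-mut against siCtrl, which is near 0, turned to -0.0027 with renewed quantile normalization and to -0.0011 with median centring, and ranged from -0.12 to 0.17 when single arrays were left out. The difference of LRRN4 between sißCat-both and sißCat-mut ranged from -0.15 to 0.33 when arrays were left out. That of FRMD5 ranged from -0.61 to -0.44 and lost its call without sißCat-mut replicate 2 or sißCat-both replicate 3, with adjusted p of 0.00644 to 0.0735 over all alternatives. Without single arrays NPNT ranged from -3.29 to -2.91 in sißCat-mut against sißCat-WT and from 0.31 to 0.69 in the departure from additivity. With sißCat-mut replicate 1 left out, these values were -3.29 and 0.69. The count of genes called in sißCat-WT against siCtrl was 1513. It ranged from 917 to 1616 when single arrays were left out and from 1474 (median centring) to 2087 (array weights) under the other alternatives. It was 917 without sißCat-WT replicate 2, 957 without sißCat-WT replicate 3 and 950 without siCtrl replicate 2. The other counts stayed within 1.5 times their main values. With the replicate block the counts were 1669 for sißCat-WT against siCtrl, 4024 for sißCat-mut and 5206 for sißCat-both against siCtrl, and 3523 for sißCat-both against sißCat-mut, beside 1513, 3810, 5000 and 3297 without it. The block changed no call of the 5 genes, and for sißCat-both against sißCat-WT it gave 5623 in place of 5383. In sißCat-WT against siCtrl the SE of FLRT2 was 0.073 with the block and 0.156 without it. For ESAM these were 0.165 and 0.182, for FRMD5 0.138 and 0.143, for NPNT 0.162 and 0.152, and for LRRN4 0.201 and 0.195. The cause of these shifts was not tested.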

Other observations

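Among the marker lists of other cell types, 2 mesothelial markers changed by over 1 on the log2 scale, named here after their values were seen. PRG4, which encodes the joint lubricant lubricin, had log2 levels of 5.23, 4.75 and 5.12 after sißCat-both, against 3.07, 3.01 and 3.35 after siCtrl (log2 change 1.89 ± 0.13, limma adjusted p = 1.69e-07). The siCtrl levels lie far below the array medians, and no detection calls were used here, so the size of this change is uncertain and may be understated. After sißCat-WT and sißCat-mut its group means were 3.02 and 3.28, so the level was high in sißCat-both alone, as for FLRT3. UPK1B, a uroplakin of the urinary epithelium and mesothelium, rose by 1.103 ± 0.16 after sißCat-mut and by 1.02 ± 0.16 after sißCat-both (adjusted p = 0.000148 and 0.000166). LRRN4, also a mesothelial marker, fell in both of these groups, and WT1 fell by 0.43 after sißCat-both (limma adjusted p = 0.014). The mesothelial list as a whole had 2 genes called higher and 1 lower of 8 after sißCat-both, and 1 higher and 0 lower after sißCat-mut. Over all genes 15.5% were called higher and 18.1% lower after sißCat-both, and 12% and 13.6% after sißCat-mut.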
